A study of Rattus norvegicus with 7 samples.

Results

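Bone morphogenetic protein (BMP) signalling was followed through 10 genes in rat lung: the receptor genes Bmpr2, Bmpr1a and Acvrl1, the coreceptor gene Eng, the ligand genes Bmp4 and Bmp6, the secreted antagonist gene Grem1, and the target genes Id1, Id2 and Id3. Members were all probe sets, groups of short probes on a microarray, whose only gene symbol in the platform annotation was 1 of these 10. This gave 15 of the 31042 non-control probe sets, with at least 1 for each gene. Of the 15, 11 lay above the filter on dim probe sets, a mean log2 expression of 3.64 over the 7 arrays, and they covered 9 genes. The 4 below it were the only probe set of Grem1, 1 of 2 for Bmpr2 and 2 of 4 for Bmp6. RNA was from the right lung, perfused, of rats labelled Dahl Salt Sensitive, of 250 to 350 g, kept at an inspired oxygen fraction of about 9.5%. H-SU-Sor rats (4 arrays) had hypoxia, SU5416 and sorafenib, and H-SU rats (3 arrays) had hypoxia and SU5416, with lungs taken at 3.5 weeks. SU5416, an inhibitor of VEGF receptors, and hypoxia were thus shared by both groups, and normoxic lungs were not analysed here. Sorafenib inhibits RAF kinases and several receptor tyrosine kinases. The age of the rats is not stated in the labels, and 1 animal per array was assumed.

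BMP ligands are secreted dimers that bring together type I receptors, such as ALK3 (from Bmpr1a) and ALK1 (from Acvrl1), and type II receptors such as BMPR2. The receptors phosphorylate SMAD1, SMAD5 and SMAD9, which enter the nucleus with SMAD4 and switch on genes such as the ID genes, whose proteins bind E proteins and keep them from DNA. In human families, loss-of-function variants of BMPR2 cause heritable pulmonary arterial hypertension, and those of ACVRL1 and ENG cause hereditary hemorrhagic telangiectasia. Hypoxia combined with SU5416 is used to model that hypertension in rats, and in lung ALK1 and endoglin are found mainly on endothelium.

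The upstream sequence of the ID genes is shown because their transcripts are the usual readout of BMP signalling. Windows of RefSeq promoters (GRCr8) were matched by symbol for 9 of the 10 members, all but Acvrl1. Each window printed has 200 bases, starts 250 bases before the transcription start and ends before the annotated gene. Capitals mark GTCT or its reverse complement AGAC, the short SMAD box, and CCAAT or its reverse complement ATTGG, the CCAAT box.
Id1, chr3:161671314-161671513, plus strand: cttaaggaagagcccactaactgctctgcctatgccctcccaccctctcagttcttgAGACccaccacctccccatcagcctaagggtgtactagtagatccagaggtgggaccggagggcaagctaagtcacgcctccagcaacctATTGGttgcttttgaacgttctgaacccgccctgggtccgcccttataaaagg
Id2, chr6:47471046-47471245, minus strand: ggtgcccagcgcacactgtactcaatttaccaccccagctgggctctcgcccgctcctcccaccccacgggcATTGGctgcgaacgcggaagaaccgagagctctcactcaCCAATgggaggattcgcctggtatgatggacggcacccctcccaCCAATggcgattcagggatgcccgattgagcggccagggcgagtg
Id3, chr5:153656041-153656240, plus strand: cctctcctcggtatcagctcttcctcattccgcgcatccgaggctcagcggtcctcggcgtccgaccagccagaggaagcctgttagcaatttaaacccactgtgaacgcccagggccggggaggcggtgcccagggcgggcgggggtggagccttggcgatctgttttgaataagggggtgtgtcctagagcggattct
The Id1 window held 1 SMAD box, at 193 bases before the start, and 1 CCAAT box, on either strand. The Id2 window held 0 SMAD boxes and 3 CCAAT boxes, and the Id3 window held 0 of either. The GC-rich element GGCGCC, another SMAD-bound motif and searched the same way, was in 0 of these 3 windows and among the members only in the Grem1 window. Of 33469 windows of the same length over all genes, 77.6% held a SMAD box, 28.8% a CCAAT box and 6.56% the GC-rich element. A match is only a run of letters, and none of the marked matches overlapped another in the windows shown.

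Array medians were 3.59 to 3.68 on the log2 scale, and pairs of arrays had a correlation of 0.984 to 0.992. Markers of alveolar type II cells, defining for lung, were high on every array, with log2 sums of 17.04 to 17.19 in H-SU-Sor and 17.10 to 17.23 in H-SU. Some arrays stood apart. H-SU 1b and 2b were above the other 5 arrays by over 2 log2 units at 6 of 31 probe sets of MHC genes, for RT1-CE5 at 11.05 and 11.45 against 2.71 to 2.82. The same arrays were high in the mean of the 4 cardiac muscle markers above the filter. It deviated from its 7-array mean by 2.12 and 1.18, against -1.12 to -0.20 on the other 5. Myoglobin (Mb) was at 6.88 and 5.59 against 2.57 to 2.64, and passed the filter only through H-SU 1b and 2b. Myh6 was at 10.65 and 10.79 against 7.85 to 9.29, and Myl7 at 11.17 and 10.87 against 7.57 to 9.86. Nppa was high only on H-SU 1b, at 9.10, with 6.80 on H-SU 2b. H-SU-Sor 3 and 4 were low in hemoglobin, and H-SU-Sor 1 had albumin (Alb) at 12.38 against 6.76 to 8.14 on the other 6 arrays. The letter b is in every H-SU replicate number and in no H-SU-Sor number, so whatever it marks and sorafenib cannot be told apart. The sources of the MHC and cardiac muscle signals were not tested, and the strain is given as labelled. Values without H-SU 1b and 2b, which leave 1 H-SU array, are given for each member gene except Id2, whose dimmer probe set they also change in size.

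The comparison asked whether transcripts of the BMP pathway differed when sorafenib was added. Across the 11 member probe sets above the filter, 7 were higher and 4 lower in H-SU-Sor, with log2 differences between -0.33 and 0.35. Their median was 0.023, and that of all probe sets tested was -0.0074. With limma, 0 of the 11 passed at a Benjamini-Hochberg adjusted p below 0.05, against 0% of all 15521 probe sets, and the lowest adjusted p of a member was 0.874. At an unadjusted p below 0.05 there were 0 members, against 6.00% of all probe sets. The groups overlapped for all 11, whereas they did not overlap for 5.26% of all probe sets. The 2-sided exact permutation p of the 10 genes was between 0.114 and 0.971, where 4 against 3 arrays cannot give less than 0.0571. In bulk lung RNA, fewer cells of a type and less RNA per cell cannot be told apart.

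**Figure D1:**
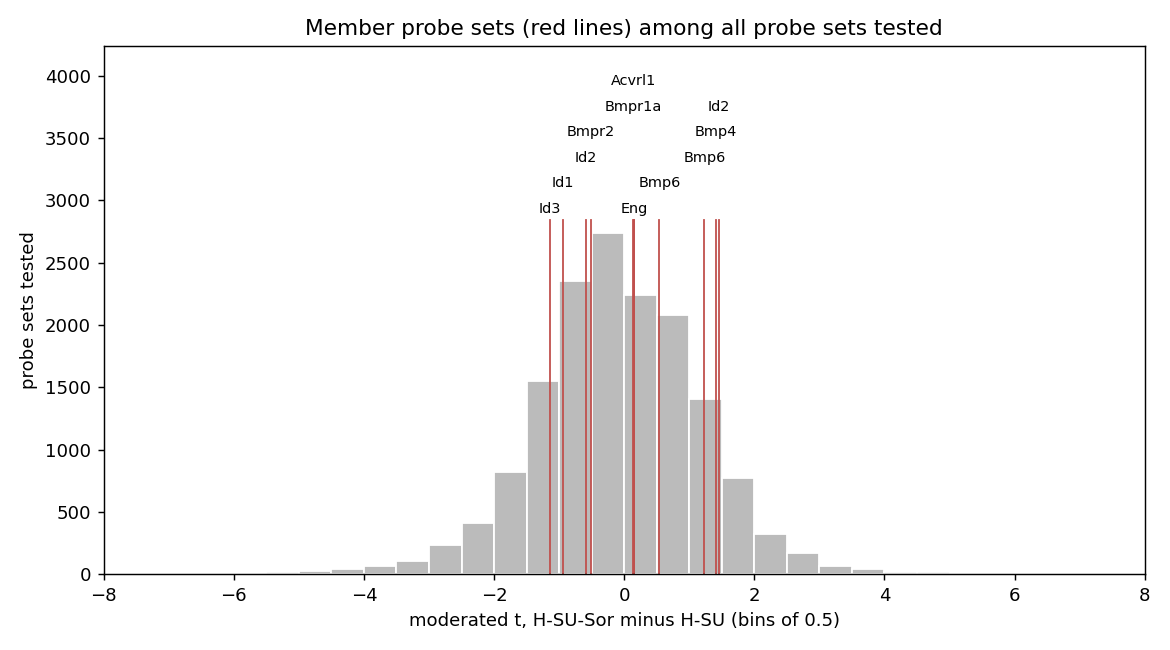
Histogram of moderated t values from limma (x axis, H-SU-Sor minus H-SU, bins of 0.5) over 15521 probe sets (y axis, number of probe sets). The 11 member probe sets above the filter, marked by red lines with their gene, lie in the middle of the distribution, and Id2 and Bmp6 each appear for 2 probe sets.

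Among the receptors, Bmpr2, the type II receptor gene, was at 11.06, 10.99, 11.10 and 10.80 on H-SU-Sor arrays 1 to 4, against 10.75, 11.21 and 11.21 on H-SU arrays 1b, 2b and 3b, on the log2 scale. The lowest and the highest array were both in H-SU, so the H-SU-Sor arrays lay within the H-SU range. The log2 difference was -0.071 ± 0.14 (SE), with a 95% interval for the ratio of H-SU-Sor to H-SU from 0.757 to 1.20. It was -0.22 without H-SU replicate 1b, and also without the H-SU arrays 1b and 2b. Bmpr1a, the type I receptor gene for BMP2 and BMP4, was at 8.98, 9.68, 9.24 and 9.56 in H-SU-Sor, against 9.38, 9.21 and 9.44 in H-SU. Here the H-SU arrays lay within the H-SU-Sor range, and the difference was 0.023 ± 0.18 (SE), a ratio between 0.758 and 1.36, and it was -0.072 without the H-SU arrays 1b and 2b.

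Acvrl1, the gene of the endothelial type I receptor for BMP9 and BMP10, was at 13.62, 13.57, 13.57 and 13.14 in H-SU-Sor and at 13.37, 13.47 and 13.53 in H-SU. H-SU-Sor 4 was the lowest of the 7 arrays, and the other 3 H-SU-Sor arrays were the highest. The difference was 0.019 ± 0.13 (SE), and 0.13 without H-SU-Sor replicate 4, and it turned to -0.052 without the H-SU arrays 1b and 2b. Eng, the gene of the coreceptor endoglin, was at 12.79, 12.60, 11.96 and 11.79 in H-SU-Sor and at 12.26, 12.15 and 12.33 in H-SU. All 3 H-SU arrays lay in the gap between H-SU-Sor arrays 1 and 2 above and 3 and 4 below. Its group means were 12.28 ± 0.48 (SD, n = 4) in H-SU-Sor and 12.24 ± 0.090 (SD, n = 3) in H-SU. The 95% interval of the ratio for Eng, 0.671 to 1.57, was accordingly wide. The difference of 0.040 turned to -0.042 without the H-SU arrays 1b and 2b and to -0.13 without H-SU-Sor replicate 1.

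**Figure D2:**
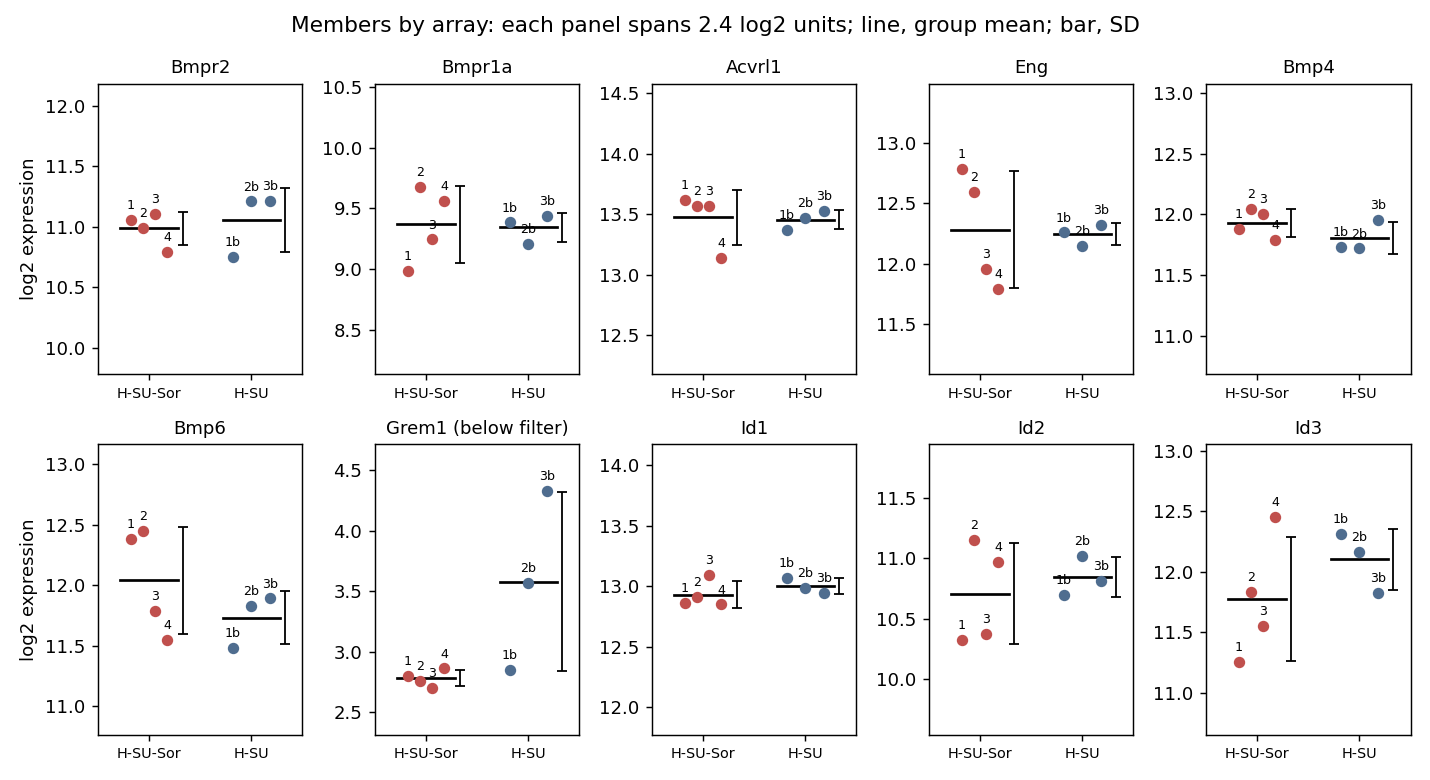
Log2 expression (y axis, each panel spanning 2.4 units) of the probe set with the highest mean of each member in H-SU-Sor (red, arrays 1 to 4) and H-SU (blue, arrays 1b to 3b), with the group mean as a line and the SD as a bar. The groups overlap in every panel, and Eng and Bmp6 show H-SU-Sor arrays 1 and 2 above arrays 3 and 4.

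Of the ligand genes, Bmp4, made by lung mesenchyme and endothelium, was at 11.88, 12.04, 12.00 and 11.79 in H-SU-Sor and at 11.73, 11.72 and 11.96 in H-SU. The highest values were those of H-SU-Sor 2 and 3, and H-SU 3b lay among the H-SU-Sor arrays. The difference was 0.13 ± 0.090 (SE), a ratio between 0.939 and 1.27, and it was -0.026 without the H-SU arrays 1b and 2b. After quantile normalization it was 0.18 with an unadjusted p of 0.0404 in limma and an adjusted p of 0.769. Bmp6, the ligand gene known for controlling hepcidin in liver, was at 12.38, 12.45, 11.79 and 11.55 in H-SU-Sor and at 11.48, 11.83 and 11.89 in H-SU for its brighter probe set. H-SU-Sor arrays 1 and 2 were above all others, while arrays 3 and 4 were within the H-SU range. The difference of this probe set was 0.31 ± 0.25 (SE), a ratio between 0.815 and 1.89. With 1 array left out it was between 0.17, without H-SU-Sor replicate 2, and 0.47, without H-SU-Sor replicate 4, and without the H-SU arrays 1b and 2b it was 0.15. The mean of all 4 Bmp6 probe sets, of which 2 were near the lower end of the scale, differed by 0.12. The other Bmp6 probe set above the filter was at 10.72, 11.03, 10.08 and 9.97 in H-SU-Sor and at 10.01, 10.58 and 10.28 in H-SU, a difference of 0.16. The correlation between the Bmp6 probe sets over the 7 arrays was 0.92.

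Grem1 encodes gremlin 1, which binds BMP2 and BMP4 outside the cell and blocks them. Its only probe set was near the lower end of the scale, at 2.80, 2.76, 2.70 and 2.86 in H-SU-Sor and at 2.85, 3.57 and 4.33 in H-SU. The signal above this level was that of H-SU 2b and 3b, while H-SU 1b read like the H-SU-Sor arrays. In a limma fit over all 31042 probe sets the difference was -0.80 ± 0.33 (SE), with an unadjusted p of 0.0504 and an adjusted p of 0.91. It was -0.43 without H-SU replicate 3b. Without the H-SU arrays 1b and 2b it was -1.54. The H-SU array left, 3b, had the highest Grem1 value. In that fit the lone H-SU array is assumed to vary as the 4 H-SU-Sor arrays did. Fibroblast marker genes, in which gremlin 1 is made, were lower in H-SU-Sor for 6 of 6, with log2 sums of 15.73 to 15.88 in H-SU-Sor and 16.03 to 16.17 in H-SU, and 0 of the 6 were at the lower end of the scale. Their part in the Grem1 values was not tested.

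The ID genes are the targets. Id1, a direct SMAD target, was at 12.87, 12.91, 13.10 and 12.85 in H-SU-Sor, against 13.07, 12.99 and 12.94 in H-SU. H-SU-Sor 3 was the highest array and the other 3 H-SU-Sor arrays were the lowest. The difference was -0.070 ± 0.075 (SE), and the 95% interval of the ratio, 0.841 to 1.08, was the narrowest of the 10 genes. Without the H-SU arrays 1b and 2b the difference was -0.014, and without H-SU-Sor replicate 3 it was -0.13. Id3 was at 11.25, 11.83, 11.55 and 12.45 in H-SU-Sor, against 12.31, 12.16 and 11.83 in H-SU. H-SU-Sor 4 was the highest array, and the other H-SU-Sor arrays were low, with H-SU-Sor 2 close to H-SU 3b. The difference of -0.33 ± 0.29 (SE) corresponds to a ratio between 0.492 and 1.29. Without H-SU-Sor replicate 4 it was -0.55, with an unadjusted p of 0.0327 in limma and an adjusted p of 0.808. Without H-SU-Sor replicate 1 it was -0.15, and without the H-SU arrays 1b and 2b it was -0.054.

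Id2 had probe sets that disagreed in sign. The brighter was at 10.33, 11.15, 10.37 and 10.97 in H-SU-Sor and at 10.69, 11.02 and 10.81 in H-SU, a difference of -0.14 ± 0.23 (SE). The dimmer was at 9.97, 10.43, 10.23 and 10.34 in H-SU-Sor and at 10.29, 9.32 and 10.06 in H-SU, a difference of 0.35 ± 0.24 (SE), with H-SU 2b far below the rest. Without H-SU replicate 2b this difference was 0.069. Their correlation over the 7 arrays was -0.046, and the mean of both gave a difference of 0.11, so no direction can be given for Id2. Id4, a further ID gene of the same family outside the members, differed by -0.084.

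**Figure D3:**
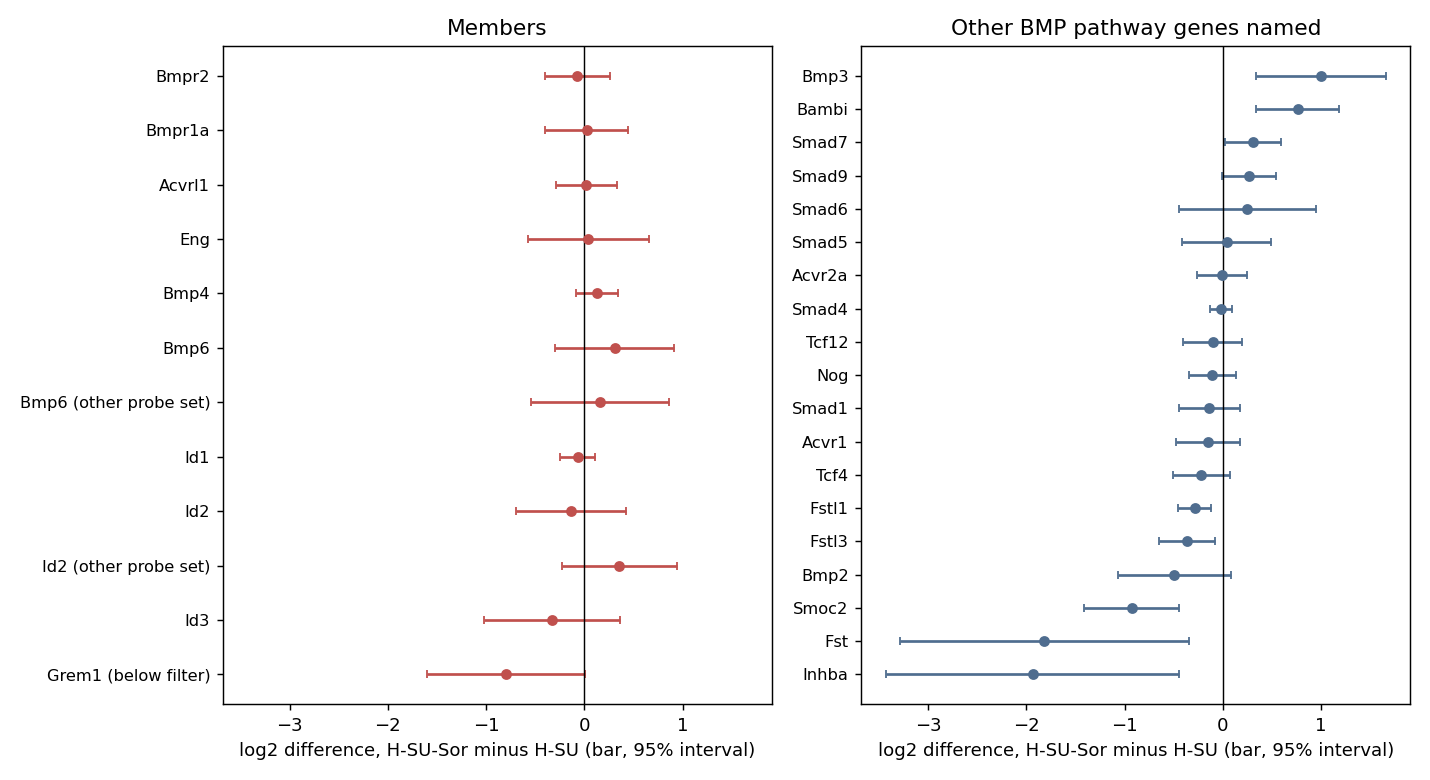
Log2 difference, H-SU-Sor minus H-SU (x axis), with its 95% interval (bar) for the member probe sets above the filter and Grem1 (left) and for 19 other named genes of the BMP pathway (right). Every member interval includes 0, and the intervals of Bmp3, Bambi, Smad7, Fstl1, Fstl3, Smoc2, Fst and Inhba do not. Inhba passed the filter only through its H-SU values.

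The SD of the 9 genes above the filter was larger in H-SU-Sor than in H-SU for 7 of them, and among all 9299 genes with a probe set above the filter this held for 59.5%. Eng and Bmp6 were higher on H-SU-Sor 1 and 2 than on 3 and 4, as described, with Bmp6 on 3 and 4 within the H-SU range. Smad6, the gene of an inhibitory SMAD that BMP signalling induces, was at 10.30, 10.55, 9.58 and 9.42 on H-SU-Sor arrays 1 to 4, and at 9.76, 9.62 and 9.76 in H-SU. Smad7, at 11.22, 11.27, 11.13 and 10.85 in H-SU-Sor, was also higher on arrays 1 and 2. So were the target genes Tmem100, at 13.72, 14.01, 12.97 and 13.33, and Apln, at 10.47, 10.95, 9.94 and 9.53. In H-SU, Tmem100 was at 13.24 to 13.34 and Apln at 9.50 to 10.55. Bambi and the target genes Id1, Id2, Id3, Id4, Hey1, Hey2, Atoh8 and Gata2 did not split this way. Id1 deviated from its 7-array mean by -0.096, -0.048, 0.13 and -0.11, and Id3 by -0.66, -0.078, -0.36 and 0.54. The grouping of Eng, Bmp6, Smad6, Smad7, Tmem100 and Apln was seen in the values and was not looked for beforehand. Transcripts of red cells split the same arrays. Hemoglobin beta (Hbb) was at 14.75, 14.27, 12.11 and 11.59 in H-SU-Sor and at 14.23, 14.51 and 14.51 in H-SU, and Alas2, the first enzyme of heme synthesis in red cells, was at 11.45, 8.58, 2.76 and 2.79 in H-SU-Sor. In H-SU, Alas2 was at 8.41, 9.52 and 9.76. The endothelial marker list, in 9 genes, deviated from its mean by -0.017, 0.020, 0.20 and -0.20 on H-SU-Sor arrays 1 to 4. Without the H-SU-Sor arrays 3 and 4, Eng differed by 0.45 and Bmp6 by 0.68, values that restate the split and carry no test. The part of red cell or endothelial content in these values was not tested.

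**Figure D4:**
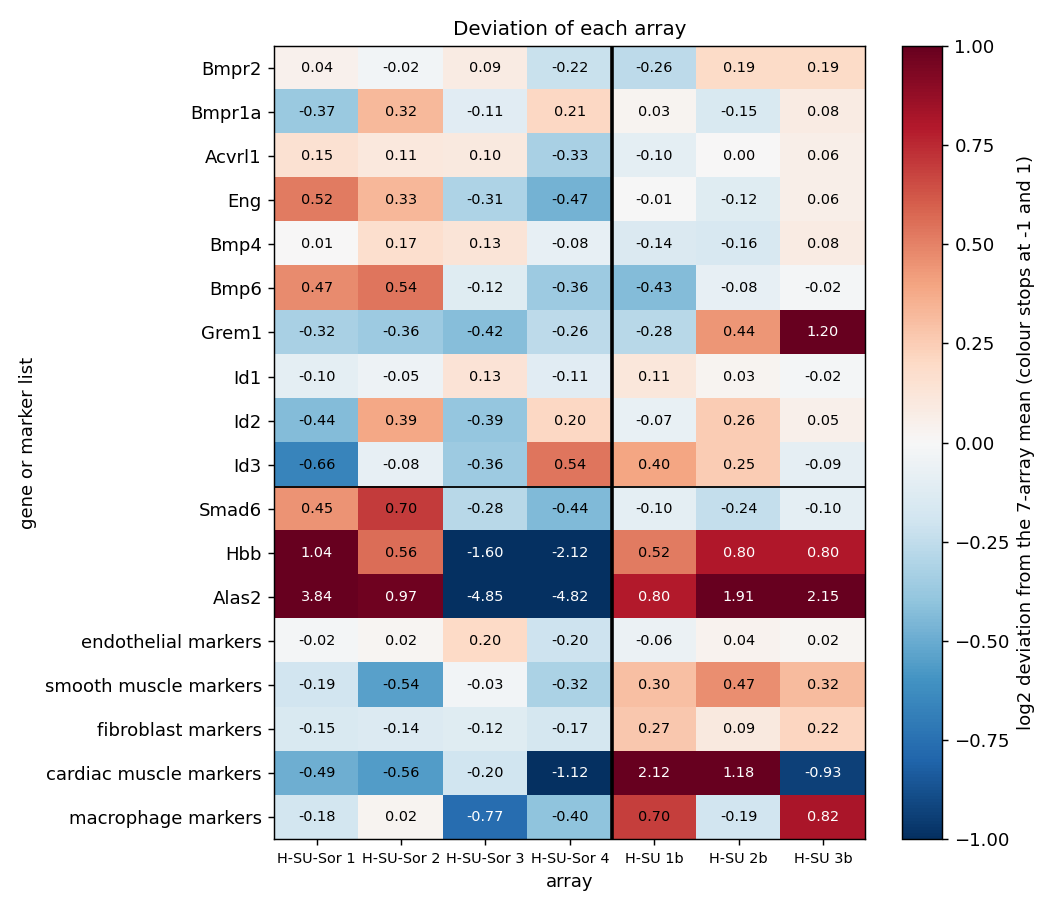
Log2 deviation of each array (columns, H-SU-Sor left of H-SU) from the 7-array mean for the 10 members, for Smad6, Hbb and Alas2, and for the mean of marker lists (rows), with colours that stop at -1 and 1. Eng, Bmp6 and Smad6 are above their mean on H-SU-Sor 1 and 2 and below it on 3 and 4, as Hbb and Alas2 are, and smooth muscle and fibroblast markers are below it on all 4.

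Relations among members were computed for 5 pairs over the 7 arrays. Acvrl1 and Eng had a Pearson r of 0.71 (exact permutation p = 0.0734, adjusted p = 0.272) and a Spearman rho of 0.75 (exact permutation p = 0.0663, adjusted p = 0.331). Without the 2 arrays farthest from the median of Acvrl1, H-SU-Sor 4 and H-SU 1b, r was 0.63. Id2 and Id3 had r = 0.66 (exact permutation p = 0.109) and rho = 0.57 (exact permutation p = 0.2), and r turned to -0.29 without H-SU-Sor 1 and 3, so the relation rested on those arrays. Id1 had r = 0.045 with Id3 (exact permutation p = 0.92, rho -0.14, p = 0.783) and r = -0.29 with Id2 (exact permutation p = 0.503, rho -0.21, p = 0.662). Bmpr2 and Bmpr1a had r = -0.38 (exact permutation p = 0.399, rho -0.32, p = 0.498). None of the 5 passed after adjustment, and groups of 4 and 3 arrays are too small for a value within a group.

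The wider pathway was read from a list of 68 gene symbols, of which 57 had a probe set of their own and 44 lay above the filter. Hjv and Hfe2 on this list name the same gene, which has a probe set under Hjv only. With limma, 0 of the 44 passed the adjusted threshold. At an unadjusted p below 0.05 there were 3 higher and 5 lower in H-SU-Sor, 8 of 44, against 6.87% of 9299 genes with 1 probe set each. The groups did not overlap for 6 of the 44, against 6.04% of all genes. Inhba is in both counts and passed the filter only through its H-SU values. The list was chosen with earlier results of these data known, so these counts are no independent test. The list's median was -0.027 and that of all genes -0.0066.

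The secreted antagonists and modulators were lower in H-SU-Sor for 8 of 9 genes above the filter, with a median of -0.29, and 4 of the 9 had an unadjusted p below 0.05. Of the 8, Chrdl1 differed by only -0.0014 and Nbl1 by -0.051. Bmper differed by -0.52, with H-SU-Sor 4 at 6.97 against 8.57 to 8.88 on the other H-SU-Sor arrays. Of all 9299 genes, 53.5% were lower and 6.87% had an unadjusted p below 0.05 in either direction. The antagonists are part of the list chosen with earlier results known, so their counts are no independent test either. Follistatin (Fst), which traps activins and some BMPs, was at 6.20, 7.04, 8.65 and 8.02 in H-SU-Sor and at 8.65, 9.56 and 9.67 in H-SU. Only H-SU-Sor 3 reached the lowest H-SU array, and the difference was -1.82 ± 0.61 (SE, limma, adjusted p = 0.812). The related Fstl3, an activin-binding protein, differed by -0.36 and Fstl1, a secreted glycoprotein of mesenchyme, by -0.29. Smoc2, a matricellular protein, was at 8.69, 8.81, 9.44 and 8.83 in H-SU-Sor, all below the 9.72, 9.79 and 10.11 of H-SU (difference -0.93 ± 0.20, SE, limma, adjusted p = 0.57). The mean of the Smoc2 probe sets differed by -0.35. Noggin (Nog), which traps BMP4, differed by -0.11 ± 0.099 (SE). Smooth muscle markers were lower in H-SU-Sor for 8 of 8, with log2 sums of 14.68 to 15.25 in H-SU-Sor and 15.59 to 15.76 in H-SU, as were the fibroblast markers above. The part of these cell types in the antagonist values was not tested.

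Of the other genes listed as ligands, 4 were higher and 3 lower. The higher ones include Bmp1, at 0.018, which encodes a protease and not a BMP ligand. Inhba, the gene of the activin A subunit that follistatin binds, was at 2.87, 2.84, 2.96 and 3.11 in H-SU-Sor and at 4.19, 3.90 and 6.54 in H-SU. All H-SU-Sor arrays were near the lower end of the scale, and H-SU 3b was far above the other H-SU arrays. The difference was -1.93 ± 0.62 (SE, limma, adjusted p = 0.774) and -1.10 without H-SU replicate 3b. Without the H-SU arrays 1b and 2b it was -3.60, again with a lone H-SU array, 3b. Bmp3, a ligand known to oppose other BMPs, was at 9.88, 9.89, 10.38 and 10.19 in H-SU-Sor, above the 8.68, 8.86 and 9.73 of H-SU (difference 0.997 ± 0.27, SE, limma, adjusted p = 0.683), and it was 0.36 without the H-SU arrays 1b and 2b. Bmp2 differed by -0.49 ± 0.24 (SE).

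Among receptors and coreceptors, 4 were higher and 4 lower. Bambi, a decoy receptor gene that BMP signalling induces, was at 8.89, 9.39, 9.49 and 9.41 in H-SU-Sor, above the 8.30, 8.54 and 8.75 of H-SU. The difference was 0.76 ± 0.18 (SE, limma, adjusted p = 0.597). Acvr1 (ALK2), a type I receptor, differed by -0.15 ± 0.13 (SE), and Acvr2a, a type II receptor, by -0.0080 ± 0.11 (SE).

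The signal-carrying SMAD genes Smad1, Smad5 and Smad9 differed by -0.14 ± 0.13, 0.039 ± 0.19 and 0.27 ± 0.11 (SE), and Smad4, their shared partner, by -0.020 ± 0.047 (SE). Smad7, an inhibitory SMAD induced by BMP and TGF-beta signalling, was at 11.22, 11.27, 11.13 and 10.85 in H-SU-Sor and at 10.91, 10.86 and 10.66 in H-SU. H-SU-Sor 4 lay among the H-SU arrays, and the difference was 0.31 ± 0.12 (SE, limma, adjusted p = 0.812). Smad6 differed by 0.25 ± 0.29 (SE). Of 9 target and partner genes above the filter, 3 were higher and 6 lower, with 0 at an unadjusted p below 0.05. The E protein genes that ID proteins act on were Tcf4, at -0.22 ± 0.12 (SE), Tcf12, at -0.10 ± 0.12 (SE), and Tcf3, whose probe set was near the lower end of the scale at 2.01 to 2.05 on all arrays.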

How the data were processed

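The table the authors deposited holds a normalized log2 value for each probe set on 7 Affymetrix arrays of total lung RNA. RMA and GCRMA are both named in the submitters' processing notes, without saying which of them made this table. Depth does not apply to arrays, whose number limits the precision. The 57 control probe sets were left out. Of 31042 others, 20826 had 1 gene symbol, 436 several and 9780 none, and 20758 matched the RefSeq table of GRCr8 by gene identifier, with 0 symbols changed.

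H-SU-Sor minus H-SU was fitted with limma 3.58.1 (R 4.3.3, lmFit and eBayes, two-sided, no covariate) on the 15521 probe sets with a mean above the median of 3.64, with Benjamini-Hochberg adjustment over all of them at 0.05. Members below the filter take values from a fit over all 31042. A gene was represented by its probe set with the highest mean. Named were all members, the 10 list genes with the smallest unadjusted p above the filter, and direct partners, of which Gdf2 was not analysed here. The members, the pathway and marker lists and these rules were chosen with earlier results of these data known. Marker scores are mean deviations from the 7-array mean. Exact permutation tests used all 35 assignments of arrays or all orders of 7 arrays (Python 3.11.15). The limma fit was tested on simulated data. Alternatives were other filters, quantile normalization, median centring, an intensity trend, array weights, other summaries of probe sets, a replicate block, and arrays left out. The alternatives for relations and for pathway genes were added after the data were seen. Replicates are separate arrays by their labels, and p-values measure the spread between them.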

Additional observations from a re-analysis of the deposited data

Results flagged for a closer look

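Of 30 probe sets checked, those of the members and the named pathway genes above the filter, 3 had an H-SU-Sor array far from the other 3, where chance alone gives about 1 in 20 groups. The measure is the gap to the nearest other array divided by the range of the group. Acvrl1 reached 0.886 because H-SU-Sor 4 was at 13.14, below the other H-SU-Sor arrays at 13.57 to 13.62. Bambi reached 0.832 because H-SU-Sor 1 was at 8.89, below the others at 9.39 to 9.49. Nog reached 0.959 because H-SU-Sor 2 was at 8.03, below the others at 8.37 to 8.38.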

How the results depend on the processing

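Among member probe sets above each setting's filter, the count past the adjusted threshold was 0 under all 18 alternatives. Grem1 was below the filter and was among them only in the setting without a filter. Its difference of -1.54 without the H-SU arrays 1b and 2b rests on H-SU 3b alone, its highest array, as given above. At an unadjusted p below 0.05 in limma the count of member probe sets was 1 with quantile normalization (Bmp4). When 1 array was left out the count was 0 to 1 (Id3, without H-SU-Sor replicate 4). Without the H-SU-Sor arrays 3 and 4 the count was 3 (Eng and both Bmp6 probe sets). These had been seen to be lower there than on H-SU-Sor 1 and 2, so this count is no test. The count over all probe sets was 6 at the 75th percentile filter and 10 without the H-SU arrays 1b and 2b, and 0 to 6 when 1 array was left out, 6 being without H-SU replicate 3b. Pathway list genes at an unadjusted p below 0.05 numbered 5 at the 75th percentile filter, where fewer genes were tested, 5 with the mean of probe sets per gene and 3 without the H-SU arrays 1b and 2b. With a replicate block they numbered 8, and that block changed no call. Same-numbered arrays had correlations of their deviations from the group means of -0.06, 0.18 and 0.14, and the other pairs of -0.17 to 0.24. These values do not settle whether the numbers mark pairs, and the arrays were not paired in the main fit.

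Differences near 0 changed sign. Bmpr1a was -0.043 with array weights, -0.042 with the replicate block, -0.072 without the H-SU arrays 1b and 2b, -0.013 without the H-SU-Sor arrays 3 and 4, and -0.080 to 0.15 when 1 array was left out. Without the H-SU arrays 1b and 2b, where the lone H-SU array is assumed to vary like the others, Acvrl1 was -0.052, Eng -0.042, Bmp4 -0.026 and Acvr2a 0.070. With the mean of probe sets, Id2 was 0.11, Smad4 0.16 and Smad5 -0.0098. Acvr2a was 0.0078 with median centring, 0.0071 with the block and 0.035 without the H-SU-Sor arrays 3 and 4, and Smad4 was 0.0027 with quantile normalization. With 1 array left out, Acvrl1 was -0.030 to 0.13, Eng -0.13 to 0.20, Bmpr2 -0.22 to 0.0062, the dimmer Bmp6 probe set -0.035 to 0.32, Acvr2a -0.086 to 0.064, Smad4 -0.035 to 0.0012, Smad5 -0.10 to 0.17 and Tcf12 -0.21 to 0.0092. The r of Id1 with Id3 was -0.21 with quantile normalization, -0.055 with median centring and -0.39 to 0.46 with 1 array left out, and that of Id1 with Id2 -0.78 to 0.064. The r of Acvrl1 with Eng was 0.92 without H-SU-Sor replicate 3 and that of Id2 with Id3 0.84 without H-SU-Sor replicate 2. The causes were not tested.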
